A study of Homo sapiens with 6 samples.

Results

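Band 19p12, next to the centromere of chromosome 19, holds a tandem array of zinc finger genes. The 37 genes described here, of 35820 in the count table, are 35 ZNF genes of that band and a pair of noncoding neighbours, IPO5P1 and LINC01224. They span 4.344 Mb (GRCh38, GENCODE v29, chr19:19785839-24129961), with 19 on the plus strand and 18 on the minus strand. The members were selected on gene family and position with the knockout against WT values of these same libraries known. Their values in that contrast are therefore given as a description, without a test.

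The libraries came from HT1080, a human fibrosarcoma cell line grown under standard culture conditions. There were 3 wild type (WT) libraries and 3 of E2-2, a knockout line in which TOP3B was cut with CRISPR and a guide RNA to exon 2. TOP3B is a topoisomerase that acts on both DNA and RNA, and the study asked about its part in R-loops and transcription. The knockout is 1 line, so what separates that line from its parent for other reasons cannot be told apart from the loss of TOP3B. Nothing in the labels says that replicates were separate cultures, so p-values rest on a spread between libraries that may be technical only.

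Most genes of the array encode proteins with a KRAB domain followed by a row of C2H2 zinc fingers. The fingers bind DNA, often inside transposable elements, and the KRAB domain recruits TRIM28 (KAP1), which brings the histone methyltransferase SETDB1 and leads to silenced chromatin. The array grew by repeated duplication in primates. ZNF91 is known for binding SVA elements and ZNF93 for binding LINE-1 elements. In the longest open reading frame of the GENCODE transcripts, 31 of the 35 ZNF members carried the KRAB core VMLENY, and the number of fingers of the exact spacing C-x2-C-x12-H-x3-H ranged from 0 in ZNF738 to 36 in ZNF208 with a median of 13. ZNF91 had 31 such fingers.

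Labels of the knockout libraries carry no replicate number. They are numbered here in label order, and equal numbers do not pair a knockout library with a WT library. Estimated counts summed to between 17919106 and 20475280 per library. Knockout replicate 3 stood apart: mitochondrial genes took 5.70% of its counts against 8.23% to 10.0% in the other 5 libraries, and the chi-square per degree of freedom between it and the other knockout libraries was 81.6 and 96.5, against 12.03 to 20.1 for the other pairs within a group. TOP3B itself had 536, 376 and 469 counts in WT and 407, 383 and 361 in the knockout. The fitted log2 fold change, -0.33 ± 0.19 (SE), missed the threshold of 0.05 (adjusted p = 0.342 by the quasi-likelihood test of edgeR with Benjamini-Hochberg adjustment), and a cut by a guide need not remove the transcript, so its level does not check the labels. The mesenchymal list gave VIM, an intermediate filament protein, a mean of 11656 CPM (counts scaled to a common library size) in WT and 11513 in the knockout, while THY1, another of its 8 genes, was near 0. Of the 7 mesenchymal genes tested, 0 were called higher and 2 lower in the knockout, where 3.21% of all genes tested were called higher and 4.63% lower. The summed level of the list was 29848 to 30929 CPM in WT and 18378 to 20223 in the knockout. Means in WT and knockout were 11737 and 3171 CPM for FN1 and 5722 and 3442 for SPARC. They were 1351 and 1243 CPM for CD44, and LGALS1 went the other way, from 21.3 to 25.9. Colon epithelial markers, examined because the series text names HCT116 once, had 0 of 4 tested genes called by edgeR (1 with an unadjusted p under 0.05, 0 called by DESeq2), sums of 106 to 118 CPM in WT and 109 to 130 in the knockout, and KRT20 and CDX2 at 0 in every library. KRT8, a keratin, was the most abundant of them at 92.6 and 90.4 CPM. Their part in the results on the array was not tested.

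Promoter sequences come first because the zinc finger members share much of theirs while their changes in RNA were unequal. The table of RefSeq promoters (GRCh38.p14, 250 bases before to 50 after each annotated start) held 29 promoters of 28 members, and 9 members had no entry. Some of these RefSeq starts lie well inside the GENCODE gene used for positions. The minus-strand gene ZNF43 begins at 21852125 in GENCODE, outside its window given below, and ZNF254 and ZNF730 differ likewise. Which start these cells use was not tested. The 130 bases that end at the annotated start are printed for 5 ZNF members with large fitted rises (ZNF91, ZNF681, ZNF43, ZNF85 and ZNF626), for a pair with small ones (ZNF431 and ZNF714) and for LINC01224, which lies upstream of ZNF91. Capitals mark the CCAAT box (CCAAT, or ATTGG on the other strand), the core of an ETS site (CTTCCGG, or CCGGAAG on the other strand) and the GC box (GGGCGG, or CCGCCC on the other strand). The regions are chr19:23395472-23395601 for ZNF91 (minus strand), chr19:23758892-23759021 for ZNF681 (minus strand), chr19:21836183-21836312 for ZNF43 (minus strand), chr19:20923121-20923250 for ZNF85 (plus strand), chr19:20661572-20661701 for ZNF626 (minus strand), chr19:21141910-21142039 for ZNF431 (plus strand), chr19:21082073-21082202 for ZNF714 (plus strand) and chr19:23416075-23416204 for LINC01224 (minus strand).
ZNF91: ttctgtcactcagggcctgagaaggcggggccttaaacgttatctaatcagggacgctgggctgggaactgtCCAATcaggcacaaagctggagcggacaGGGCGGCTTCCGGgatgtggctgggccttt
ZNF681: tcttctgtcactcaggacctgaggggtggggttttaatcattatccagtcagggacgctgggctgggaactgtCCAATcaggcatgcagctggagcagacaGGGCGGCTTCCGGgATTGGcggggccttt
ZNF43: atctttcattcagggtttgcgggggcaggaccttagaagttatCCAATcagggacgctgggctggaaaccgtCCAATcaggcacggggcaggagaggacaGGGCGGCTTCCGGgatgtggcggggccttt
ZNF85: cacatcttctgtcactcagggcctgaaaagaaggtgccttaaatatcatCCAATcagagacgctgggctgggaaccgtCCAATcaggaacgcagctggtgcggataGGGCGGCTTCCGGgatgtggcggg
ZNF626: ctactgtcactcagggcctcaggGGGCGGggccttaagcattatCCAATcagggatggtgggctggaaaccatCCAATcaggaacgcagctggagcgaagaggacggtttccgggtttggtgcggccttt
ZNF431: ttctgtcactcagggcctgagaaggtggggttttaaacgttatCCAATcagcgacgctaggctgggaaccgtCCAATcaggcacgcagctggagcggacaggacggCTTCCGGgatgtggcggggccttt
ZNF714: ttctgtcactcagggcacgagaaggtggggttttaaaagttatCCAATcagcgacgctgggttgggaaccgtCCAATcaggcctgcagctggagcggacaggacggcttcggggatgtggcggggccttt
LINC01224: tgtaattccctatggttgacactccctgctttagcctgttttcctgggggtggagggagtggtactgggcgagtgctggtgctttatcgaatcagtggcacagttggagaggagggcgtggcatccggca

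The pairs of CCAAT boxes and the run GGGCGGCTTCCGG just before the start recur from gene to gene. The printed promoters were picked by hand, so they do not show whether the run goes with the rise. Among the tested ZNF members not printed, ZNF430, ZNF724 and ZNF726 carry it, with log2 fold changes of 0.72, 1.00 and 1.13. ZNF708, with 0.40, has it after the start. ZNF93 and ZNF257, with 3.21 and 2.41, do not. Neither do ZNF254, ZNF100, ZNF675, ZNF90, ZNF429, ZNF493 and ZNF208, with values from 1.83 down to 0.48. A link between the run and the rise was not tested. A CCAAT box on either strand was present in 27 of 28 promoters of zinc finger members (96.4%), 20 of them with at least 2, against 44.6% of the 240 other ZNF promoters of chromosome 19, 39.2% of 288 ZNF promoters of other chromosomes and 34.6% of all 35116 promoters. The ETS core was present in 22 of 28 (78.6%), against 36.3%, 28.5% and 10.3% in the same 3 groups. For the GC box the share was 75.0%, against 63.8%, 56.3% and 45.0%. GC box and ETS core stand side by side in several members and do not share bases. In zinc finger members, matches on the strand of the gene lay at a median of 55 bases before the start for the CCAAT box. The median was 17 for the ETS core and 47 for the GC box. CCAAT boxes and GC boxes each fell in separate groups, and few GC boxes lay near their median. In ZNF430 the CCAAT boxes lay 84 and 55 bases before the start, and the GC boxes 104 and 26. The 12-base run GTCCAATCAGGC, which contains a CCAAT box and was picked as the most frequent in these promoters, occurred in 18 of the 28 (64.3%), against 0.417%, 2.78% and 0.0911% in the same 3 groups. Member promoters had fewer CpG sites in 300 bases, with a median of 10, against 21 in the other ZNF promoters of chromosome 19 and 14 over all promoters. A match describes these letters and does not show a bound factor.

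**Figure D1:**
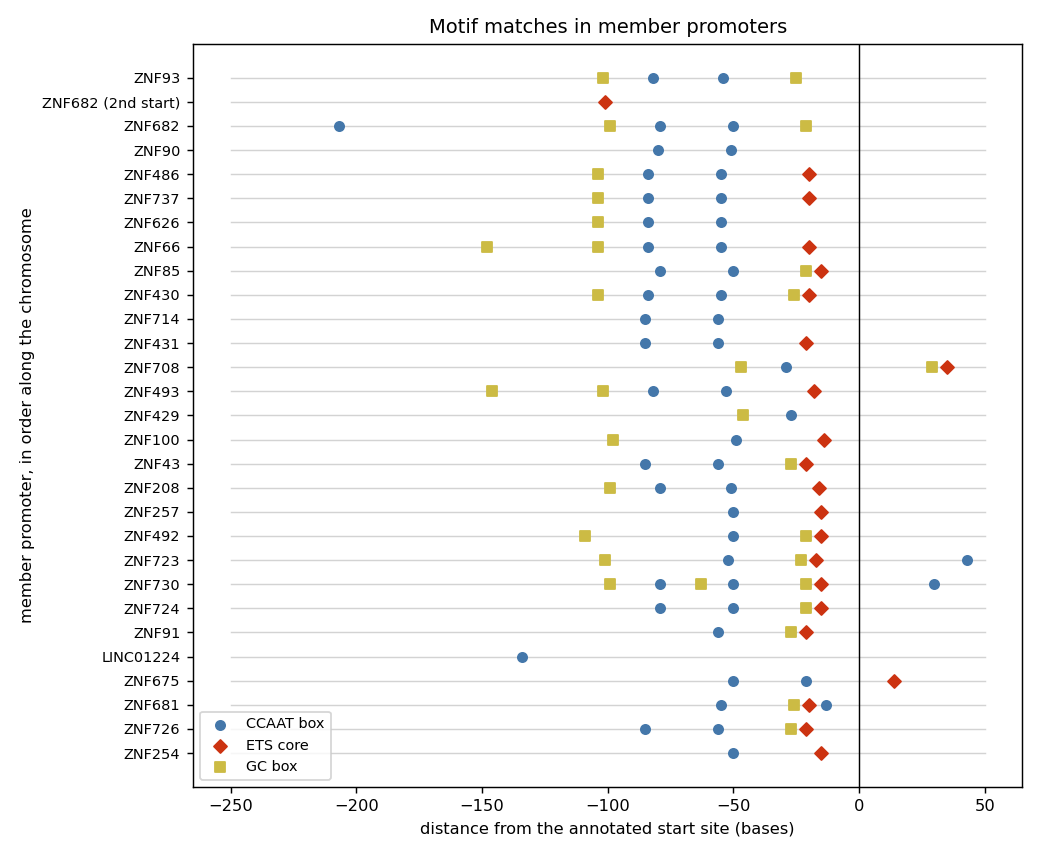
Places of the CCAAT box, ETS core and GC box (letters as spelled out in the text, either strand) in the 29 member promoters, against distance from the annotated start in bases. CCAAT boxes line up near 55 bases and ETS cores near 17 bases before the start in most zinc finger members. Many also have a CCAAT box near 84 bases before the start, and GC boxes fall in separate groups. LINC01224 has a single CCAAT match, farther from its start.

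Aligned locally, the 130 bases before ZNF91 were identical to the other zinc finger member promoters at a median of 84.2% of their length (lowest 66.9% in ZNF429, highest 91.5% in ZNF431, n = 26). The promoter at the other annotated start of ZNF682, which has no CCAAT box, was left out by hand here and for the shorter window below. Its identity was not computed, so the lowest value holds without it. Other ZNF promoters of chromosome 19 reached a median of 12.3% and at most 64.6% (n = 240), and LINC01224 33.1%. Over only the 70 bases nearest the ZNF91 start, a window chosen after the sequences were seen, LINC01224 reached 61.4%, against a median of 85.7% in the other zinc finger members and 21.4% in the other ZNF promoters of chromosome 19 (highest 62.9%). Of 35087 promoters that belong to no member, 122 (0.348%) reached at least the value of LINC01224. Spearman's rho between the identity to the ZNF91 promoter and the fitted log2 fold change was -0.12 across 19 members. Between the number of CpG sites and the fold change it was -0.08 across 20 members. These points share their libraries and are related by duplication. ZNF91 itself had a fitted fold of 27.7. Among tested members, the promoter most like its own belonged to ZNF431 (91.5%), with a fitted fold of 1.27. Next came ZNF726 (90.8%) at 2.19-fold, then ZNF208 and ZNF254 (89.2% each) at 1.40-fold and 3.54-fold. Whether promoter sequence bears on the rise was not tested.

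Of all 13965 genes tested, 7499 were fitted higher in the knockout, and the median log2 fold change was 0.05. All 25 members that passed the filter on low counts were fitted higher, with a median of 1.51. They ranged from 1.19-fold in ZNF506 to 46.9-fold in IPO5P1. Of these 25, 12 were called higher (edgeR, Benjamini-Hochberg adjustment over all genes tested) and 0 lower, where 3.21% of all genes tested were called higher and 4.63% lower. The 12 were IPO5P1, LINC01224, ZNF91, ZNF626, ZNF43, ZNF85, ZNF681, ZNF254, ZNF100, ZNF675, ZNF726 and ZNF738. In 23 of the 25 every knockout library lay above every WT library in CPM, which held for 16.5% of all genes tested, and in 0 every knockout library lay below, which held for 17.1%. ZNF253 and ZNF208 overlapped. Because the contrast was known when the members were proposed, nothing is read from these counts. The filter also matters: 6 of the tested members (ZNF93, ZNF626, ZNF43, ZNF257, IPO5P1 and LINC01224) reached 10 counts in all 3 knockout libraries and not in all 3 WT libraries. Without WT replicate 3 or without knockout replicate 1 the calls fell to 7, without WT replicate 1, WT replicate 2 or knockout replicate 2 to 8, and without knockout replicate 3 there were 12. The share called over all genes tested also moved, from 7.84% to between 1.55% and 2.71%, and to 13.2% without knockout replicate 3. ZNF85, ZNF43, IPO5P1, ZNF91, LINC01224, ZNF675 and ZNF681 were called in each of these 6 fits.

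Together the members took 0.0163%, 0.0159% and 0.0176% of the counts in the WT libraries and 0.0390%, 0.0381% and 0.0404% in the knockout libraries. Their summed level was 166, 164 and 177 CPM in WT and 390, 380 and 382 CPM in the knockout. These sums did not overlap, and knockout replicate 3 lay with the other knockout libraries. In bulk RNA, more cells transcribing a gene and more RNA per cell cannot be told apart.

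**Figure D2:**
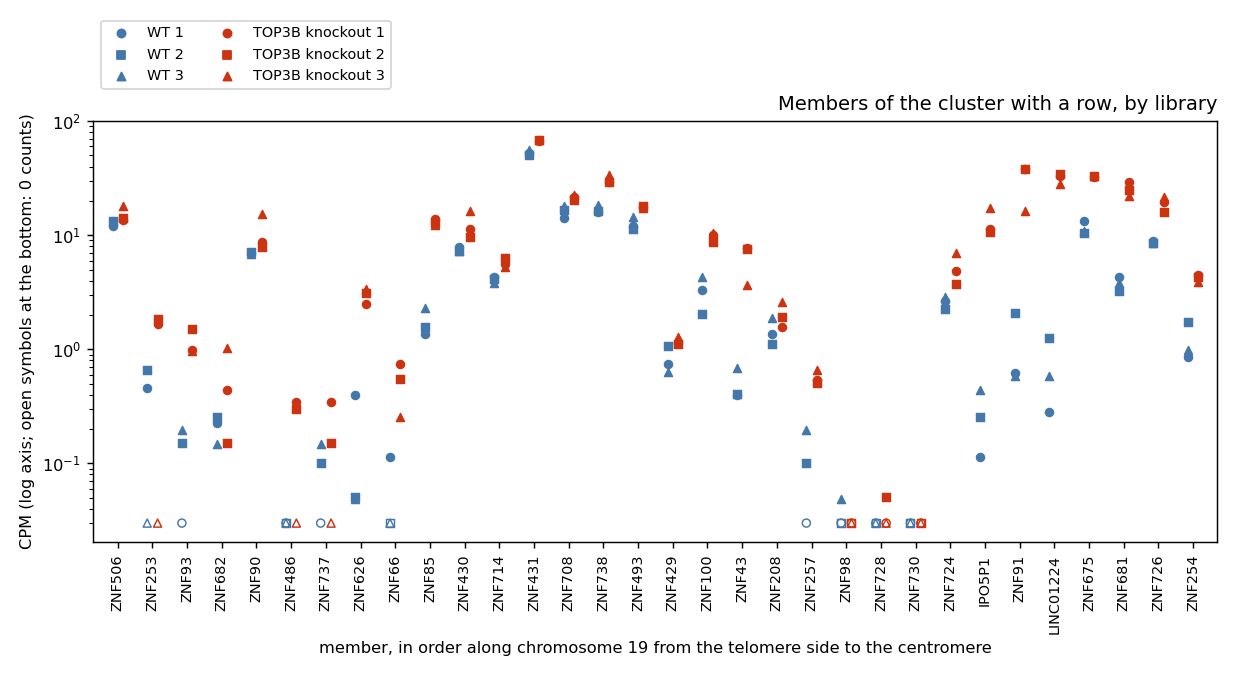
CPM of the 32 members with a row in each of the 6 libraries, on a log axis, in order along the chromosome, with WT in blue, knockout in red and symbols for replicates. The widest gaps between the colours are at IPO5P1, ZNF91, LINC01224, ZNF626 and ZNF43, ZNF431 is the highest member in both groups, and open symbols at the bottom stand for 0 counts.

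The largest fitted rises were in 3 neighbours on the minus strand. LINC01224, a long intergenic noncoding RNA, lies 3672 bases upstream of ZNF91, and IPO5P1, a transcript named as a pseudogene of the nuclear import factor IPO5, lies 30739 bases beyond its other end. ZNF91 had 11, 41 and 12 counts in WT and 775, 753 and 317 in the knockout. The WT libraries were all low, and knockout replicate 3 held 0.427 times the mean CPM of the other knockout libraries yet stayed far above every WT library. Mean levels were 1.098 ± 0.848 CPM (SD, n = 3) in WT and 30.7 ± 12.6 CPM (SD, n = 3) in the knockout, a log2 fold change of 4.79 ± 0.60 (SE). Without WT replicate 2, the WT library with the most ZNF91, it was 5.64.

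LINC01224 had 5, 25 and 12 counts in WT and 669, 687 and 549 in the knockout. WT replicate 2 was again the highest of its group, and the groups did not overlap. Its mean went from 0.714 ± 0.503 to 31.8 ± 3.37 CPM (SD, n = 3 each), a log2 fold change of 5.45 ± 0.45 (SE), or 6.14 without WT replicate 2. IPO5P1 had 2, 5 and 9 counts in WT and 232, 211 and 342 in the knockout. Here knockout replicate 3 was the highest library, unlike in ZNF91. Mean levels were 0.270 ± 0.165 and 13.2 ± 3.76 CPM, and the log2 fold change was 5.55 ± 0.47 (SE). The functional gene, IPO5, had 17311, 21662 and 21719 counts in WT and 26372, 25968 and 20322 in the knockout. The fitted log2 fold change of IPO5, 0.21 ± 0.11 (SE), missed the threshold (edgeR, Benjamini-Hochberg adjusted p = 0.283).

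The length that the deposited count and RPKM of IPO5P1 imply is 287 bases, the length of its annotated transcript IPO5P1-202. None of the 238 stretches of 50 bases in that transcript occurs in a transcript of another gene, IPO5 included. Over all its annotated transcripts, 10.1% of the 50-base stretches do, with the largest share in AC092329.1, which overlaps IPO5P1 on the same strand. Which of these overlapping genes the reads came from was not tested. For LINC01224 the shared part was 0.360%.

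The other 7 of the 8 ZNF members with the largest fitted rises were scattered along the array and lay on both strands. ZNF626 had 7, 1 and 1 counts in WT and 51, 62 and 66 in the knockout. All of its WT libraries were near 0, so its log2 fold change of 4.17 ± 0.74 (SE) rests on few reads and was 5.73 without WT replicate 1. ZNF43, a large protein with 19 fingers, had 7, 8 and 14 counts in WT and 156, 151 and 72 in the knockout. As in ZNF91, knockout replicate 3 was lowest of its group, at 0.482 times the mean CPM of the other knockout libraries. The mean of ZNF43 went from 0.497 ± 0.165 to 6.31 ± 2.28 CPM (SD, n = 3 each), a log2 fold change of 3.64 ± 0.44 (SE).

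ZNF93, the LINE-1 binder, had 0, 3 and 4 counts in WT and 20, 30 and 19 in the knockout. The groups did not overlap, but the gene was not called, with a log2 fold change of 3.21 ± 0.76 (SE). ZNF257 was lower still, with 0, 2 and 4 counts in WT and 11, 10 and 13 in the knockout, and was not called either (log2 fold change 2.41 ± 0.78, SE, and 3.28 without WT replicate 3). At this depth both are known only to a wide margin.

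ZNF85 and ZNF681 were measured with more reads. ZNF85 had 24, 31 and 47 counts in WT and 281, 253 and 239 in the knockout, means of 1.75 ± 0.497 and 12.9 ± 0.814 CPM (SD, n = 3 each). Its knockout libraries lay close together, and its log2 fold change was 2.88 ± 0.26 (SE). ZNF681 had 75, 64 and 78 counts in WT and 591, 498 and 436 in the knockout, means of 3.78 ± 0.514 and 25.5 ± 3.40 CPM. Its log2 fold change of 2.75 ± 0.19 (SE) had the smallest error among the 8 largest rises of ZNF members. ZNF254, at the centromere end of the array, had 15, 34 and 20 counts in WT and 92, 85 and 76 in the knockout, a log2 fold change of 1.83 ± 0.35 (SE), or 2.19 without WT replicate 2. Its groups did not overlap either.

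The 4 ZNF members with the highest CPM averaged over all 6 libraries were ZNF431, ZNF738, ZNF675 and ZNF708, an order by reads that is not corrected for length and would differ within either group. ZNF675, also known as TIZ and described as a binder of the signalling protein TRAF6, had 235, 205 and 221 counts in WT and 662, 657 and 645 in the knockout. The knockout libraries were within a few percent of each other, and the mean went from 11.5 ± 1.60 to 32.8 ± 0.276 CPM (SD, n = 3 each), a log2 fold change of 1.51 ± 0.15 (SE). ZNF738, whose longest reading frame holds no finger of the spacing searched, had 281, 324 and 374 counts in WT and 600, 588 and 656 in the knockout, a log2 fold change of 0.87 ± 0.13 (SE). Its call held in 1 of the 6 fits that leave out a library. ZNF708 had 248, 331 and 367 counts in WT and 438, 404 and 445 in the knockout, a log2 fold change of 0.40 ± 0.15 (SE), and was not called.

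ZNF431 was the member with the most reads, with 932, 990 and 1139 counts in WT and 1359, 1355 and 1325 in the knockout. Every knockout library lay above every WT library, by a small margin. Its mean went from 53.1 ± 2.91 to 67.6 ± 0.699 CPM (SD, n = 3 each), a log2 fold change of 0.35 ± 0.10 (SE), and it was not called. Its SE was the smallest of the 25 tested members.

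Of the remaining tested members, ZNF100 and ZNF726 were called, at 3.01-fold and 2.19-fold. ZNF724 was fitted at 2.00-fold and was not called, and 48.7% of the 50-base stretches in its transcripts also occur in other genes, above all AC092329.3, so its value is uncertain. ZNF430, ZNF90, ZNF429, ZNF714, ZNF493, ZNF208 and ZNF506 lay under 2-fold and were not called. ZNF253 rested on a part of the libraries: it had 8, 13 and 0 counts in WT and 34, 37 and 0 in the knockout. The libraries at 0, WT replicate 3 and knockout replicate 3, are not paired by the labels. Its log2 fold change of 1.66 ± 1.41 (SE) was 2.23 without knockout replicate 3.

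The order along the chromosome was uneven. From ZNF430 to ZNF429, 7 consecutive members within 0.536 Mb, all fitted folds lay between 1.27 and 1.82. From ZNF724 to the centromere end, 8 consecutive members within 0.908 Mb, they lay between 2.00 and 46.9. Both stretches were picked after the values were seen. ZNF208 and ZNF257 are neighbours with fitted log2 fold changes of 0.48 and 2.41, and both were measured with few reads. Across the 25 tested members Spearman's rho of the log2 fold change was 0.33 with position and -0.15 with exonic length. It was -0.46 with the mean WT RPKM, a value that shares the WT libraries with the fold. These are descriptions over members that share all 6 libraries.

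**Figure D3:**
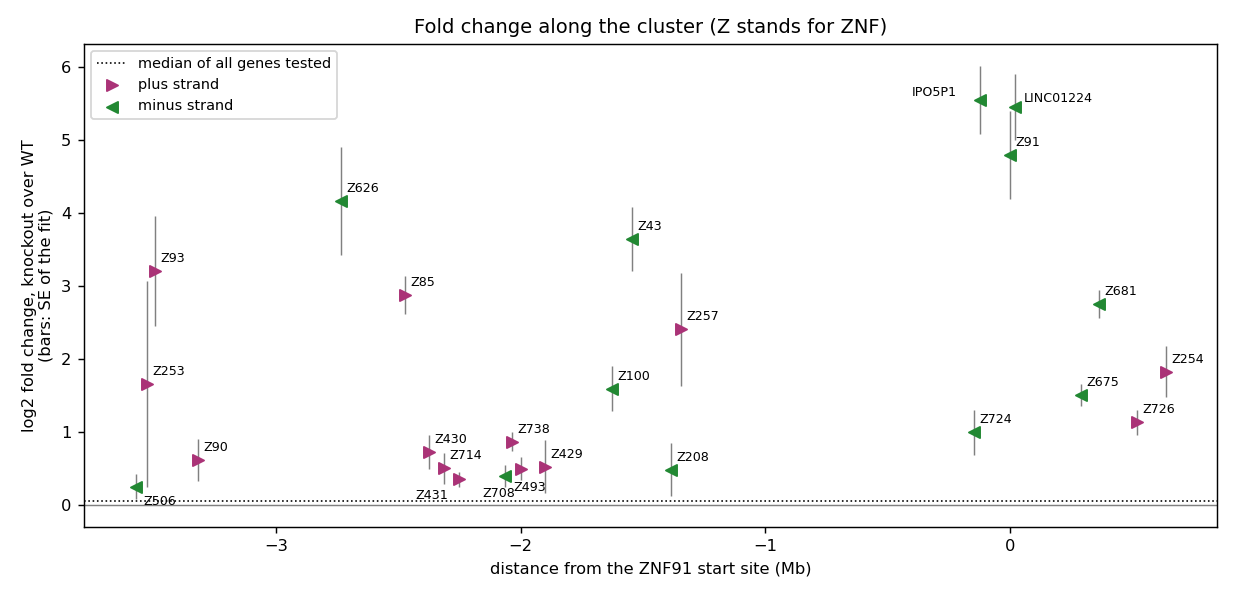
Fitted log2 fold change (knockout over WT) of the 25 tested members against the distance of their start from that of ZNF91 in Mb, with bars for the SE of the fit, triangles pointing in the direction of transcription and a dotted line at the median of all genes tested, 0.05. All 25 points lie above the dotted line, from 0.25 in ZNF506 to 5.55 in IPO5P1, and the 3 highest stand next to each other at ZNF91.

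Levels between members can be compared per length only, and the deposited RPKM values divide by a length that for 18 of 30 members lies within 3% of the mean genomic span of the annotated transcripts, introns included. That length was a median of 5.29 times the exonic length, and IPO5P1 stands aside with its 287 bases. On the RPKM scale the highest zinc finger member was ZNF431 in both groups, with a mean of 1.54 ± 0.106 in WT and 2.05 ± 0.0729 in the knockout (SD, n = 3 each). LINC01224 went from 0.0512 ± 0.0379 to 2.48 ± 0.194 RPKM, from below ZNF85 (0.0820) to above ZNF431. ZNF91 went from 0.0348 ± 0.02695 to 1.04 ± 0.405 RPKM. Per kilobase of exon instead, mean CPM in the knockout was highest in LINC01224 at 9.66 and next in ZNF738 at 7.90. In WT ZNF738 led at 4.33 and LINC01224 had 0.216. IPO5P1, with 7978 exonic bases, had 1.65 in the knockout on that scale. With the implied 287 bases its mean was 0.889 ± 0.519 RPKM in WT and 47.1 ± 15.1 RPKM in the knockout (SD, n = 3 each). Its rank thus depends on the length used. Across the 25 tested members Spearman's rho between WT and knockout RPKM was 0.79.

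Another 7 members with a row were too low to test. ZNF66 had 2, 0 and 0 counts in WT and 15, 11 and 5 in the knockout, a ratio of 14.9 scaled to library size (95% exact interval 3.80 to 129, counting error only). ZNF486 had 0 counts in all WT libraries and 7, 6 and 0 in the knockout libraries, which is at least 4.18-fold higher when WT is set to a floor of 3 counts for the group. ZNF682 had 4, 5 and 3 counts in WT and 9, 3 and 20 in the knockout, and these overlapped. ZNF737 had 0, 2 and 3 counts and 7, 3 and 0 counts, which overlapped as well. ZNF98 had 1 count, in WT replicate 3, ZNF728 had 1 count, in knockout replicate 2, and ZNF730 had 0 in every library. Of the 32 members with a row, 30 had the higher mean CPM in the knockout. The like share over all genes with a row was not computed. ZNF676, ZNF729, ZNF492, ZNF99 and ZNF723 had no row, so no RNA level of theirs was analysed here. For ZNF98, 41.1% of the 50-base stretches also occur in other genes, above all ZNF492.

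Genes around the array and zinc finger genes elsewhere serve as a background for these values. Over all genes tested, edgeR called 3.21% higher and 4.63% lower. The 5 tested non-members within the array had a median log2 fold change of 0.26, and 0 were called by edgeR or DESeq2, with 0 at an unadjusted p under 0.05. A further 58 of the 75 non-members with a row there had 0 counts in every library. In the last 2 Mb of the p arm before the array, edgeR called 0 of 51 tested genes higher and 1 lower, with 5 higher and 3 lower at an unadjusted p under 0.05 and 4 called by DESeq2. Their median was 0.18. The nearest tested protein-coding genes on that side were ATP13A1 and ZNF101, with log2 fold changes of 0.25 ± 0.36 and 0.41 ± 0.16 (SE) and edgeR Benjamini-Hochberg adjusted p of 0.699 and 0.179. Across the centromere they were POP4 and PLEKHF1, with 0.04 ± 0.11 and 1.04 ± 0.39 (SE) and edgeR Benjamini-Hochberg adjusted p of 0.854 and 0.161.

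The 23 tested zinc finger members had a median log2 fold change of 1.13, with 10 called higher and 0 lower. Of all genes tested, 3.21% were called higher and 4.63% lower. Other ZNF genes of the p arm had a median of 0.14 over 29 tested, with 3 called higher (10.3%) and 1 lower. The largest fitted zinc finger rises lay outside the array, in genes named here after their values were seen. On the p arm, ZNF558 had 5, 3 and 7 counts in WT and 616, 610 and 556 in the knockout, a log2 fold change of 6.81 ± 0.27 (SE), above every member. ZNF44 had 0 in all WT libraries and 21, 14 and 17 in the knockout libraries, which is at least 16.7-fold higher with WT set to a floor of 3 counts for the group, and ZNF799 had a log2 fold change of 2.55 ± 0.28 (SE). On another chromosome ZNF736 had 0, 5 and 0 counts in WT and 87, 31 and 68 in the knockout, a log2 fold change of 5.07 ± 1.05 (SE). On the q arm the median was 0.01 over 132, with 1 higher (0.758%) and 4 lower. On the other chromosomes it was 0.02 over 202, with 6 higher (2.97%) and 4 lower. The 9 calls among the other chromosome 19 ZNF genes became 3 or 4 without WT replicate 1, 2 or 3 or knockout replicate 1 or 2, and 17 without knockout replicate 3. Over all genes tested, the share called went from 7.84% to between 1.55% and 2.71%, and to 13.2% without knockout replicate 3. Since the members were proposed with this contrast known, the difference between these groups was not tested.

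**Figure D4:**
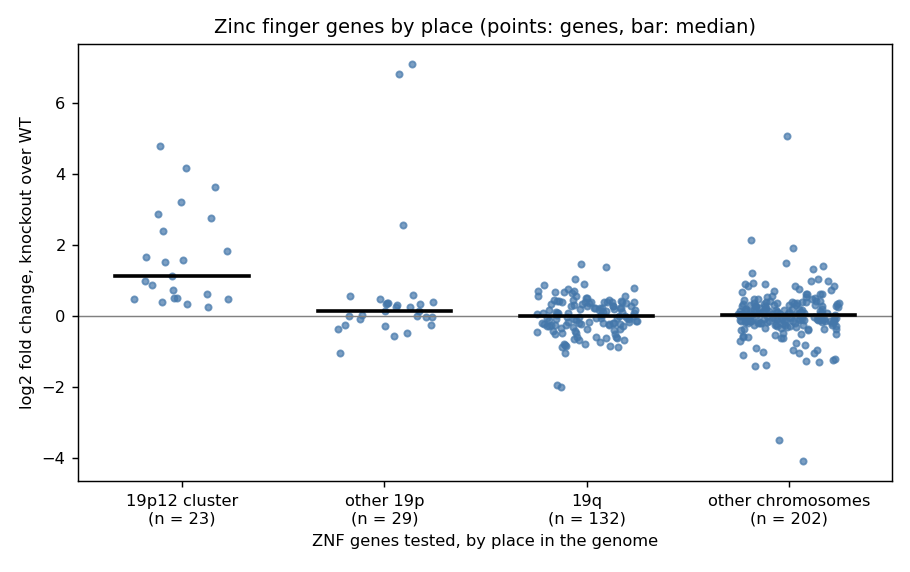
Fitted log2 fold change (knockout over WT) of each tested ZNF gene, by place in the genome, with a bar at the median. The 23 genes of the array all lie above 0 with a median of 1.13, while the other groups spread to both sides of 0 with medians of 0.14, 0.01 and 0.02, and 3 of their genes lie above every ZNF gene of the array.

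The machinery through which KRAB zinc finger proteins act was described from a list of 33 co-repressor genes, all of them tested. In the knockout, 3 were called higher and 1 lower, 29 did not pass, and the median log2 fold change was 0.09. Of all genes tested, 3.21% were called higher and 4.63% lower. TRIM28, the adaptor that KRAB domains bind, had 28187, 32235 and 28263 counts in WT and 35704, 36787 and 26424 in the knockout. The groups overlapped, and the fitted log2 fold change, 0.10 ± 0.13 (SE), missed the threshold (edgeR, Benjamini-Hochberg adjusted p = 0.681). SETDB1 had a fitted log2 fold change of -0.60 and missed the threshold too (edgeR, Benjamini-Hochberg adjusted p = 0.0959). HDAC1, a histone deacetylase, rose by 0.58 ± 0.13 (SE, adjusted p = 0.0423), and RBBP4, a histone chaperone that partners it, rose by 0.50 ± 0.09 (SE, adjusted p = 0.0206) on the log2 scale in edgeR. CHD3, a remodelling enzyme of the NuRD complex, fell by 0.60 ± 0.11 (SE, edgeR Benjamini-Hochberg adjusted p = 0.0284) on the log2 scale. RBBP7, called higher as well, is a close relative of RBBP4. The number of calls depended on the libraries: without WT replicate 1 there was 1, without WT replicate 2 or 3 or knockout replicate 1 or 2 there were 0, and without knockout replicate 3 there were 5. The share called over all genes tested moved the same way, from 7.84% to between 1.55% and 2.71%, and to 13.2% without knockout replicate 3.

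Transcripts of retroviral origin, a group among the elements that KRAB zinc finger proteins bind, were measured for 6 of the 9 genes listed. Of these, 4 were tested and 0 were called by edgeR or DESeq2, with 0 at an unadjusted p under 0.05. ERVK3-1, the most abundant, had means of 97.6 ± 2.84 CPM in WT and 94.4 ± 4.27 CPM in the knockout (SD, n = 3 each). SVA and LINE-1 elements have no row of their own in the tables used here.

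Reads that could belong to more than 1 gene limit some of these values. In the annotation, 16 of the 37 members overlap another gene on the same strand and 30 on the opposite strand. The library kit keeps strand. Whether the counting used it is not stated in the labels or notes. For the 5 ZNF members with the clearest rises, ZNF91, ZNF43, ZNF85, ZNF681 and ZNF675, between 1.95% and 3.31% of the 50-base stretches of their transcripts occur in another gene. In the other called ZNF members the share was 2.20% in ZNF738, 6.33% in ZNF254, 6.77% in ZNF100, 6.85% in ZNF626 and 10.8% in ZNF726. These shares cover annotated transcripts only and leave out introns.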

How the data were processed

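Ribosomal RNA was removed from total RNA and 6 libraries were sequenced, 3 WT and 3 TOP3B knockout. The authors deposited estimated counts per gene as whole numbers, and Salmon 1.10.1 and hg19 are named in the submitters' processing notes. The authors also deposited RPKM values per gene. Library totals lay between 17919106 and 20475280, and intervals and floors cover counting error only.

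The estimated counts were fitted over all 13965 genes that passed filterByExpr with edgeR 4.0.16 in R 4.3.3 (TMM scaling, quasi-likelihood F test, Benjamini-Hochberg adjustment, threshold 0.05). Standard errors come from the F statistic. CPM uses TMM-scaled library sizes. Alternatives were DESeq2 1.42.0, limma-voom and limma-trend (limma 3.58.1), the latter on log2(RPKM + 1) and log2(RPKM + 0.1), DESeq2 size factors, library size alone, other filters and each library left out. One entry named E2F1 in one table and E2F2 in the other was left out.

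Genes were placed with GENCODE v29 (GRCh38): 31807 symbols matched it directly, 3740 matched through a gene name table, and 273 did not match. Promoter identity is the number of identical bases in the best local alignment (Biopython 1.88) over 130. The members and lists were chosen with earlier results of these data known. Values in every library are given for IPO5P1, LINC01224, the 8 ZNF members with the largest fitted rises (none fell) and the 4 with the highest CPM averaged over all 6 libraries (not corrected for length), and other members by range.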

Additional observations from a re-analysis of the deposited data

How the results depend on the processing

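No tested member was fitted lower under 13 of the 14 alternatives. Without a filter on low counts 1 of 31 was, ZNF98 with its single count. With all libraries kept, the alternatives called between 12 and 14 members against 12, and leaving out 1 library gave 7 to 12. The members' median log2 fold change of 1.51 became 0.24 on log2(RPKM + 1), 0.61 on log2(RPKM + 0.1) and 1.07 with a filter of 1 CPM in 3 libraries, and 1.24 to 1.61 with 1 library left out. A pseudocount above most members' RPKM shrinks their folds by construction, and the stricter filter tests 22 members. The calls among other chromosome 19 ZNF genes went from 9 to 20 with DESeq2 and 14 with library size alone, and the cause was not tested. With 1 library left out they were 3 to 17. The calls in the co-repressor list were 0 to 5 with 1 library left out. Over the whole table DESeq2 called 2199 genes against 1095 by edgeR, and those 6 fits called 223 to 1899, the most without knockout replicate 3. For the 14 named members, 165 of 194 alternative values moved by less than the spread, 29 by more and 0 reversed. No paired analysis was possible because the knockout labels carry no replicate numbers. Members under about 10 counts in WT (ZNF626, ZNF93, ZNF257, IPO5P1) are limited by depth.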
